A study of Glycine max with 4 samples.

Results

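The phenylpropanoid and flavonoid genes of the soybean leaf were followed across 24 h without phosphate (Pi). Members were every single-gene locus of the deposited table whose description names phenylalanine ammonia-lyase, 4-coumarate:CoA ligase, chalcone synthase or isomerase, another flavonoid or anthocyanin enzyme, a hydroxycinnamoyl transferase, a caffeoyl-CoA methyltransferase or a dirigent protein. Cytochrome P450 genes were left out by this rule. It took 102 of 39505 loci, and 3 more loci with such descriptions were set aside because they merge several genes. The rule used descriptions and no expression value, but it was chosen with earlier results of these data known.

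All plants were Williams 82, the cultivar of the soybean reference genome, grown in hydroponics until day 18. They were then moved for 24 h either to solution with 500 µM KH2PO4 (Pi-sufficient leaves, PSL) or to solution with 0 µM KH2PO4 (Pi-deprived leaves, PDL). In the second solution K2SO4 took the place of KH2PO4, so sulfate supply differed between the groups along with Pi. Each group has 2 libraries (PSL-1 and PSL-2, PDL-1 and PDL-2), each made from the first trifoliate leaves of several plants pooled, and the p-values below measure the spread between such pools.

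Phenylalanine ammonia-lyase opens the phenylpropanoid pathway by turning phenylalanine into cinnamic acid, and 4-coumarate:CoA ligase later makes p-coumaroyl-CoA, the branch point of the pathway. Chalcone synthase and chalcone isomerase lead from there into flavonoids, which in soybean leaves include flavonols and the legume-specific isoflavones. Hydroxycinnamoyl transferases and caffeoyl-CoA methyltransferases lead toward lignin and other phenolics, and dirigent proteins steer the coupling of the phenolic radicals that form lignans. Low Pi is known to raise flavonoid and anthocyanin levels in the leaves of many plants, usually after longer deprivation than here.

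The values are FPKM, fragments scaled to transcript length and to the mapped fragments of a library, so levels can be compared between genes as well as between libraries. Fold changes come from limma on log2(FPKM + 0.1), fitted on the 32686 loci with a mean of at least 0.3 FPKM, of which 83 are members. A locus is called higher or lower in PDL, or said to rise or fall, where the log2 fold change was 1 or more in size and the unadjusted p was 0.05 or less, the thresholds of the study. Values of a group are given in the order of its libraries, 1 then 2. The log2(FPKM + 0.1) scale understates the change of genes with low values. With 2 libraries a group, the smallest p of an exact two-sided permutation test is 0.333, and the number of reads behind each FPKM was not known here.

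Light-harvesting and small Rubisco subunit loci, the defining genes of leaf mesophyll, summed to between 120219 and 155309 FPKM. Both PDL libraries were above both PSL libraries at 34 of the 37 tested, against 20.2% of all tested loci, with a median log2 fold change of 0.29, although limma called 0 of them and 5 had an unadjusted p of 0.05 or less. This shift moved with the groups, and its part in the members' values was not tested. In bulk leaf RNA, fewer cells of a type and less RNA per cell cannot be told apart. Of 58 tested loci in a list of Pi-starvation genes (SPX, purple acid phosphatase, sulfolipid synthase and Pi transporter genes), 8 were called higher and 0 lower. Glyma.17G114700, an SPX gene of Pi sensing, had 22.2 and 17.2 FPKM in PDL against 7.61 and 7.35 in PSL, for a log2 fold change of 1.37 ± 0.17 (SE, limma adjusted p = 0.359). Guard cell loci summed to 65.8 and 75.4 FPKM in PDL against 53.1 and 59.8 in PSL, with 2 of 8 tested called higher and 0 lower, and dividing-cell loci to 141 and 151 against 128 and 108, with limma calling 0 of 8 and 1 at an unadjusted p of 0.05 or less. Neither list overlapped between groups, and their part in the members' values was not tested either. Xylem loci, where lignin is laid down, summed to 56.7 and 44.1 FPKM in PDL against 41.5 and 48.9 in PSL, so the groups overlapped. Their list has 13 loci, with 1 of the 8 tested called higher and 0 lower. The median log2 fold change of the 8 was 0.69, and 3 had an unadjusted limma p of 0.05 or less. Both PDL libraries were above both PSL libraries at 4 of the 8 and below them at 1. The part of xylem in the members' values was not tested. Epidermis and cuticle loci summed to 592 and 1024 FPKM in PDL against 684 and 595 in PSL, so the groups overlapped and PDL-2 stood highest. Of the 22 tested, limma called 0, with 0 at an unadjusted p of 0.05 or less. Their part in the members' values was likewise not tested.

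The members differed widely in level. Of the 102, 69 had a mean of at least 1 FPKM, 29 of at least 10 and 7 of at least 100, while 19 stayed under the 0.3 FPKM needed for the test. Listed at 0 in at least 1 library were 18 members, and their highest value in any library was 0.821 FPKM. The 7 most abundant members were 3 dirigent-like genes, a pair of phenylalanine ammonia-lyase genes, 1 4-coumarate:CoA ligase gene and 1 hydroxycinnamoyl transferase gene. Together all members took 0.113% to 0.131% of the summed FPKM of a library.

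**Figure D1:**
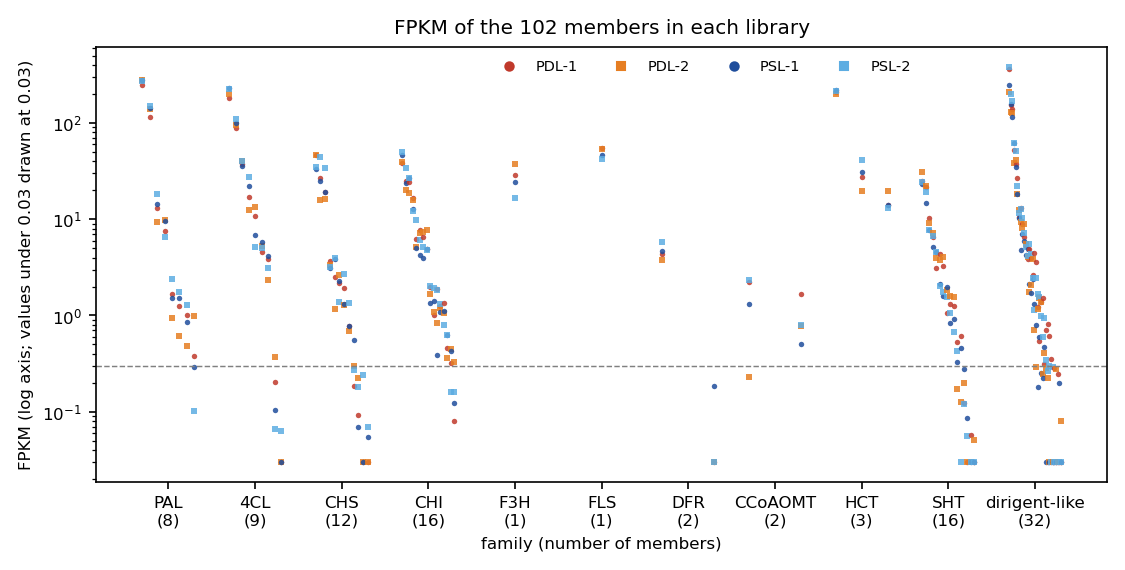
FPKM (log axis) of each of the 102 members in the 4 libraries, by family, with members ordered by mean level within a family and the number of members in brackets. The dashed line marks the 0.3 FPKM mean needed for the test. Above 10 FPKM the spread of a member's 4 libraries is small beside the whole range of member levels. It can exceed the distance to the next member, as for the chalcone synthase gene Glyma.01G228700 at 15.9 to 44.5 FPKM. PAL, phenylalanine ammonia-lyase. 4CL, 4-coumarate:CoA ligase. CHS and CHI, chalcone synthase and isomerase. F3H, flavanone 3-hydroxylase. FLS, flavonol synthase. DFR, dihydroflavonol 4-reductase. CCoAOMT, caffeoyl-CoA O-methyltransferase. HCT and SHT, hydroxycinnamoyl transferases to shikimate/quinate and to spermidine.

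Few of these genes changed under Pi deprivation. Glyma.17G064400, a 4-coumarate:CoA ligase gene, and Glyma.15G241300, a spermidine hydroxycinnamoyl transferase gene, rose in PDL, and Glyma.08G109500, a chalcone synthase gene, fell. Of the 83 tested members, 2 (2.41%) were thus called higher, where 1.14% of all tested loci were, and 1 (1.2%) lower, where 0.887% were. An unadjusted p of 0.05 or less at any fold was reached by 10 of the 83 members, against 8.93% of all loci. In limma, 0 members had an adjusted p under 0.05, the lowest being 0.471, against 0.0581% of all loci. The median log2 fold change was 0.02 over the members and −0.01 over all tested loci, with 43 members above 0 and 40 below. Both PDL libraries lay above both PSL libraries at 20 members (24.1%, against 20.2% of all loci) and below them at another 20 (24.1%, against 21.1%). These shares are near those of all loci. With a pseudocount of 1 in place of 0.1, the log2 fold changes of the 3 called members were 0.90, 0.80 and −0.84 in the order named, and none of the 3 was called. Among the 29 members of at least 10 FPKM, 0 were called in limma, and their log2 fold changes ran from −0.76 to 0.70.

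**Figure D2:**
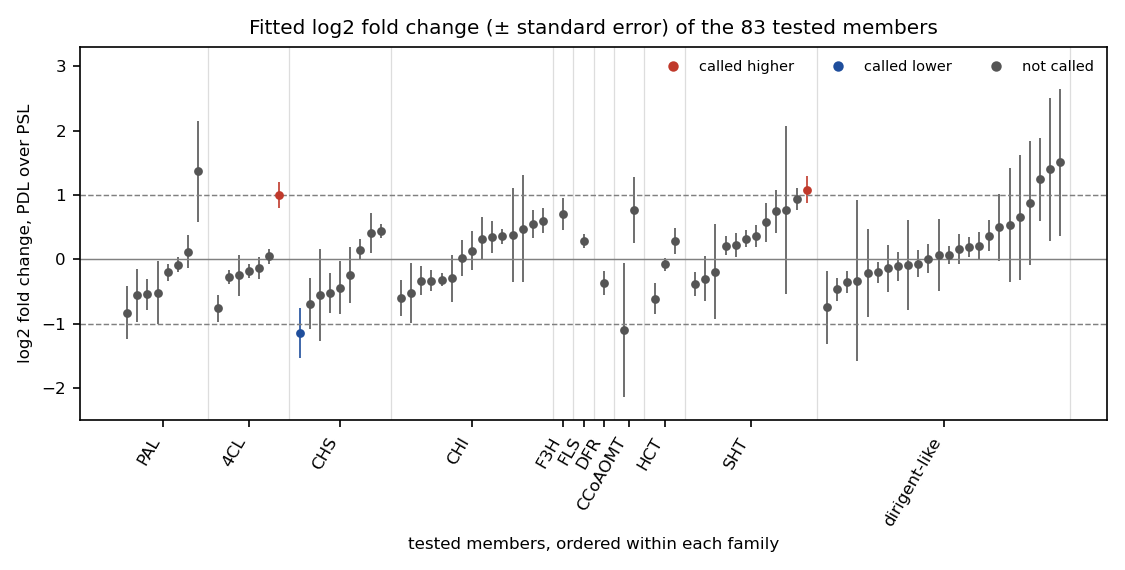
Log2 fold change of PDL over PSL, with its standard error from limma, for the 83 tested members, ordered within each family. Dashed lines mark log2 fold changes of 1 and −1, and 3 members are called, 2 higher and 1 lower. The wide bars among the dirigent-like genes belong to members of low level, such as Glyma.07G157100 at 1.51 with a standard error of 1.14.

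The entry step of the pathway differed little between groups. Phenylalanine ammonia-lyase had 8 members, all tested, and most of its transcript came from the pair of most abundant genes, which made up 93.9% of the summed FPKM. Glyma.10G058200 (Gmax2.0 chromosome 10, 5329320 to 5333414) had 246 and 279.9 FPKM in PDL against 283 and 274 in PSL. The groups overlapped, and its log2 fold change was −0.08 ± 0.12 (SE, limma adjusted p = 0.836). Glyma.13G145000 had 117 and 139 in PDL against 144 and 149.7 in PSL, lower in both PDL libraries by less than the fold threshold. The weaker copies had larger standard errors. Glyma.03G181600 had the lowest log2 fold change of the family, −0.83 (standard error 0.42), from 1.25 and 0.612 FPKM in PDL against 1.52 and 1.77 in PSL. Glyma.10G209800 had the highest, 1.37 (standard error 0.79), from 0.382 and 0.998 in PDL against 0.293 and 0.102 in PSL. Both rested on values under 2 FPKM, and limma called 0 of the 8 members, with 0 at an unadjusted p of 0.05 or less. The family summed to 388 and 441 FPKM in PDL against 455 and 454 in PSL.

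Among the 4-coumarate:CoA ligase genes, which activate coumaric acid with coenzyme A, the dominant copy and a minor copy differed in opposite directions. The family has 9 members, 7 of them tested. Glyma.17G064600 (Gmax2.0 chromosome 17, 4988063 to 4993858), which gave 54.6% of the family's FPKM, had 182 and 199 in PDL against 230.4 and 229 in PSL. Both PDL libraries were lower, with a log2 fold change of −0.27 ± 0.11 (SE, limma adjusted p = 0.568), which is far from the fold threshold. Its neighbour Glyma.17G064400 (Gmax2.0 chromosome 17, 4952737 to 4957349) had 10.9 and 13.3 FPKM in PDL against 6.89 and 5.19 in PSL. The groups did not overlap, and the log2 fold change of 1.0006 ± 0.21 (SE, limma adjusted p = 0.471) lay just past the threshold. Without PDL-2 or without PSL-2 its value was 0.86 or 0.80 and the call was lost. The gene between them on the chromosome, Glyma.17G064500, was listed at 0 in 3 libraries and at 0.0632 FPKM in PSL-2. Thus 3 adjacent genes with like descriptions spanned the family's whole range of levels. Glyma.13G372000, at 16.96 and 12.4 in PDL against 22.3 and 27.3 in PSL, was lower in both PDL libraries with a log2 fold change of −0.76 ± 0.21 (SE, limma adjusted p = 0.524). Its unadjusted p was 0.0204, but it did not reach the fold threshold. The family summed to 345 and 368 FPKM in PDL against 405 and 419 in PSL.

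Chalcone synthase, which joins p-coumaroyl-CoA with malonyl-CoA into the first flavonoid skeleton, had 12 members and 9 tested. Glyma.19G105100 (Gmax2.0 chromosome 19, 35466609 to 35469160) was the most abundant, with 46.5 and 46.2 FPKM in PDL against 33.0 and 35.4 in PSL. The replicates of each group were close and the groups did not overlap, giving a log2 fold change of 0.44 (standard error 0.10, unadjusted p = 0.0114, limma adjusted p = 0.499). The next genes in level behaved differently. Glyma.01G228700 had 26.7 and 15.9 in PDL against 24.8 and 44.5 in PSL, and Glyma.11G011500 had 19.4 and 16.4 in PDL against 19.3 and 34.1 in PSL. For both, PSL-2 was the highest and PDL-2 the lowest library, while PDL-1 and PSL-1 nearly coincided.

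The chalcone synthase member called lower was Glyma.08G109500 (Gmax2.0 chromosome 8, 8398177 to 8399483). It had 2.50 and 1.18 FPKM in PDL against 3.90 and 3.96 in PSL, and the log2 fold change was −1.14 ± 0.39 (SE, limma adjusted p = 0.546). Leaving out PDL-2 reduced the value to −0.63 and ended the call, as did leaving out either PSL library, at −1.16 and −1.13. Glyma.08G109500 lies in a run of 4 chalcone synthase genes between 8384838 and 8399483 on chromosome 8. Its neighbour Glyma.08G109400 had 3.64 and 3.34 in PDL against 3.10 and 3.18 in PSL, a difference in the other direction. The remaining pair, Glyma.08G109300 and Glyma.08G109200, stayed at or under 0.560 FPKM in every library. Chalcone synthase copies in soybean can be close to identical and reads could map to several places, so how reads were split among these 4 genes is uncertain. The family summed to 104 and 88.1 FPKM in PDL against 89.1 and 127 in PSL, and the groups overlapped.

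**Figure D3:**
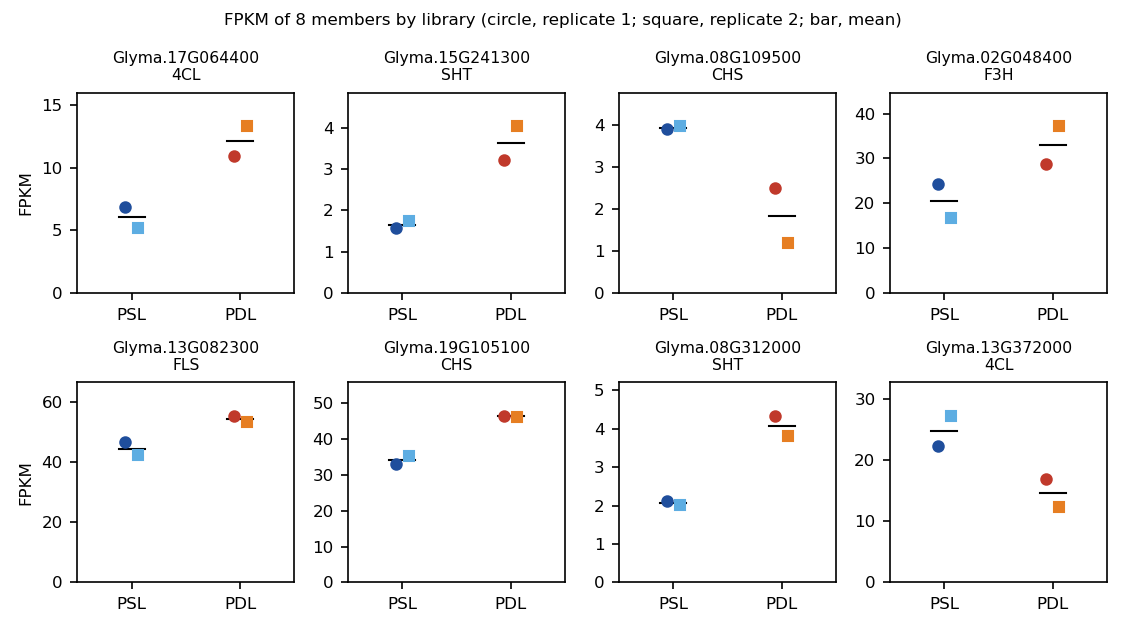
FPKM by library for 8 members in PSL (blue) and PDL (red and orange), with the mean of each group as a bar and axes that start at 0. They are the 3 called members, Glyma.17G064400, Glyma.15G241300 and Glyma.08G109500, and 5 members chosen after their values were seen, whose groups do not overlap. In every panel both PDL libraries lie on the same side of both PSL libraries.

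Chalcone isomerase closes the ring of the chalcone to give a flavanone, and its family also holds fatty-acid-binding relatives in Arabidopsis. It had 16 members, 15 of them tested, and limma called 0, with 3 at an unadjusted p of 0.05 or less. Glyma.20G241500 (Gmax2.0 chromosome 20, 47259546 to 47261559) had the highest level, 38.1 and 39.0 FPKM in PDL against 46.4 and 49.9 in PSL. It was lower in both PDL libraries, with a log2 fold change of −0.32 ± 0.10 (SE, limma adjusted p = 0.545). The next gene along the chromosome, Glyma.20G241600, differed the other way, at 7.80 and 7.17 in PDL against 4.27 and 6.10 in PSL. Glyma.20G241700, the last of this run of 3, had 6.25 and 5.15 in PDL against 4.97 and 9.79 in PSL and overlapped between groups. Elsewhere, Glyma.15G242900 had the highest log2 fold change of the family, 0.60 (standard error 0.19), from 6.48 and 7.33 in PDL against 3.95 and 5.15 in PSL. Glyma.14G098100 had the lowest, −0.60 (standard error 0.29), from 1.02 and 1.08 in PDL against 1.41 and 1.92 in PSL. Of the 15 tested isomerase members, 4 had both PDL libraries above and 4 had both below the PSL libraries, near the 20.2% and 21.1% of all loci. The family sum of 138 and 129 FPKM in PDL against 135 and 158 in PSL overlapped between groups.

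Past the isomerase, the flavonol branch was represented by single genes. Glyma.02G048400 (Gmax2.0 chromosome 2, 4440767 to 4443996) encodes flavanone 3-hydroxylase, which makes dihydroflavonols. It had 28.8 and 37.2 FPKM in PDL against 24.2 and 16.6 in PSL, and the groups did not overlap. The log2 fold change was 0.70 (standard error 0.25, unadjusted p = 0.0425, limma adjusted p = 0.551), below the fold threshold. Glyma.13G082300 (Gmax2.0 chromosome 13, 19154291 to 19159362), for flavonol synthase 1, which turns dihydroflavonols into flavonols, had 55.4 and 53.3 in PDL against 46.6 and 42.4 in PSL. Again both PDL libraries were higher, with a log2 fold change of 0.29 ± 0.11 (SE, limma adjusted p = 0.562). Dihydroflavonol 4-reductase uses the same substrate for anthocyanins and tannins, and its 1 tested member lay on the other side. Glyma.02G158700 had 4.33 and 3.77 FPKM in PDL against 4.68 and 5.85 in PSL, for a log2 fold change of −0.36 ± 0.19 (SE, limma adjusted p = 0.641). The other reductase member, Glyma.17G252200, was listed at 0 in 3 libraries and at 0.183 in PSL-1. A merged reductase locus left out by the rule, that of Glyma.17G173200 and Glyma.17G173300, leaned the opposite way. It had 7.91 and 5.86 FPKM in PDL against 7.32 and 3.87 in PSL, with overlapping groups and a log2 fold change of 0.35. None of these differences passed the thresholds, and no member has a description naming anthocyanidin synthase or an isoflavone enzyme.

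Hydroxycinnamoyl transferases fall into 2 kinds. The kind that uses shikimate or quinate leads to caffeoyl esters and lignin and had 3 members, all tested. Glyma.08G220200 (Gmax2.0 chromosome 8, 17893651 to 17899003) gave 82.5% of their FPKM and was nearly level, at 212 and 200.3 in PDL against 219 and 216 in PSL. Its log2 fold change was −0.08 ± 0.10 (SE, limma adjusted p = 0.822). Glyma.07G021600 had 27.7 and 19.6 in PDL against 30.9 and 41.2 in PSL, for a log2 fold change of −0.61 ± 0.24 (SE, limma adjusted p = 0.574), and Glyma.13G371000 had 13.9 and 19.7 in PDL against 14.1 and 12.997 in PSL. Limma called 0 of the 3, with 0 at an unadjusted p of 0.05 or less.

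The kind named for spermidine, which in Arabidopsis joins hydroxycinnamic acids to the polyamine spermidine, had 16 members and 12 tested. Both PDL libraries were above both PSL libraries at 7 of the 12 tested members and below them at 1, where 20.2% and 21.1% of all loci did so. The median log2 fold change was 0.35, and 1 member was called higher (1.14% of all loci) and 0 lower (0.887%). Glyma.15G241300 (Gmax2.0 chromosome 15, 45864873 to 45866253) was the called gene, with 3.23 and 4.04 FPKM in PDL against 1.58 and 1.74 in PSL. The log2 fold change was 1.08 ± 0.21 (SE, limma adjusted p = 0.471), and the call was lost without PDL-2 (0.92) and without PSL-1 (1.02). Glyma.08G312000 (Gmax2.0 chromosome 8, 43135801 to 43137160) had 4.34 and 3.81 in PDL against 2.13 and 2.03 in PSL. Its log2 fold change of 0.94 ± 0.18 (SE, limma adjusted p = 0.471) lay just inside the fold threshold, with an unadjusted p of 0.00497. It ends a run of 5 such genes on chromosome 8 that starts at 43083889. In that run Glyma.08G311500 and Glyma.08G311600 were also higher in both PDL libraries, at 1.32 and 1.61 against 0.827 and 1.07, and at 1.25 and 1.54 against 0.921 and 0.667. The other pair of the run stayed at or under 0.618 FPKM. Reads could map to several places, so neighbours in a run may not give separate values. The most abundant member, Glyma.18G103500, had 25.0 and 30.7 in PDL against 23.2 and 24.6 in PSL, for a log2 fold change of 0.21 ± 0.15 (SE, limma adjusted p = 0.710). In the opposite direction Glyma.16G039500 had 3.09 and 3.96 in PDL against 4.59 and 4.59 in PSL. The spermidine kind summed to 79.1 and 86.6 FPKM in PDL against 64.0 and 70.8 in PSL, so the sums did not overlap. Flavanone 3-hydroxylase and flavonol synthase, each with 1 gene, were the other families whose level was higher in both PDL libraries. The sums of 4 families were lower in both, namely phenylalanine ammonia-lyase, 4-coumarate:CoA ligase, dihydroflavonol 4-reductase and the shikimate/quinate transferases, the last at 254 and 239.6 FPKM in PDL against 264 and 270.7 in PSL. Merged loci are not part of these sums, among them the reductase locus given above.

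**Figure D4:**
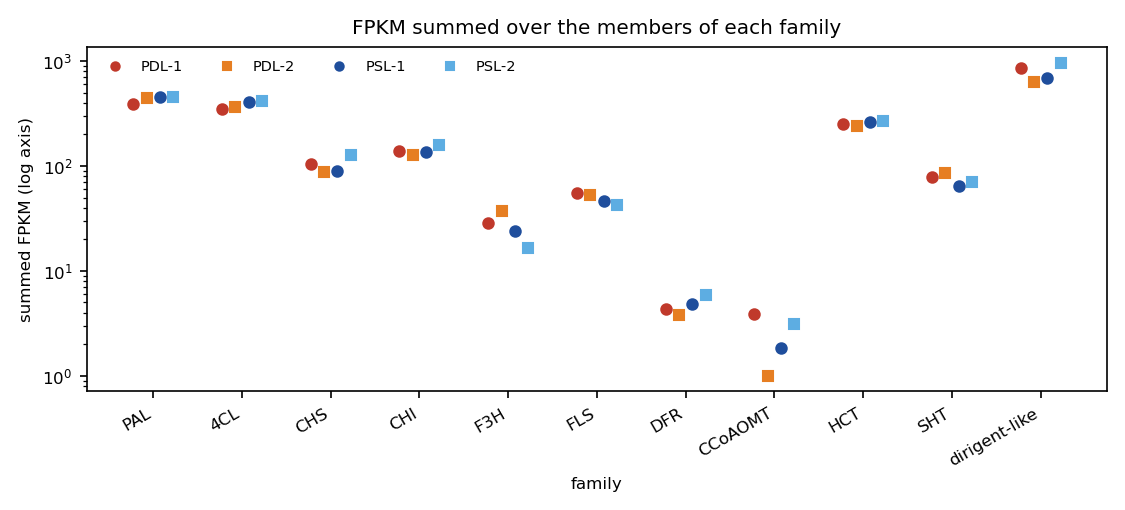
FPKM summed over the members of each family (log axis) in each of the 4 libraries. The spermidine hydroxycinnamoyl transferases (SHT) lie at 79.1 and 86.6 in PDL against 64.0 and 70.8 in PSL, the phenylalanine ammonia-lyase (PAL) sums at 388 and 441 in PDL against 455 and 454 in PSL, and the chalcone synthase (CHS) and dirigent-like sums overlap between the groups.

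Caffeoyl-CoA O-methyltransferase, which adds the methyl group of feruloyl-CoA on the way to lignin, had 2 members of low level. More abundant methyltransferase loci with a general description are not members and are given with the KEGG annotation below. Glyma.05G147000 had 2.21 and 0.227 FPKM in PDL against 1.32 and 2.35 in PSL, so the PDL libraries stood farther apart than the groups. Its log2 fold change was −1.10 with a standard error of 1.04 (limma adjusted p = 0.759). Glyma.08G103900 had 1.68 and 0.777 in PDL against 0.508 and 0.791 in PSL, and its groups overlapped as well.

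Dirigent-like proteins were the largest family, with 32 members of which 24 were tested, and their descriptions place them among disease-resistance-responsive genes. Limma called 0 of them, with 0 at an unadjusted p of 0.05 or less. Glyma.01G127200 (Gmax2.0 chromosome 1, 43807295 to 43807862) was the most abundant of all members. It had 369 and 212 FPKM in PDL against 246 and 385 in PSL, so the spread within each group exceeded the difference between them, and its log2 fold change was −0.14 ± 0.37 (SE, limma adjusted p = 0.921). Glyma.09G198900 had 152 and 129.8 in PDL against 159 and 202 in PSL, and Glyma.11G150400 had 139 and 129 in PDL against 117 and 168 in PSL. In all of these PSL-2 was the highest library. The family had the widest range of fitted values among the members, from −0.74 for Glyma.01G127100 to 1.51 for Glyma.07G157100. The latter was at 0.821 and 0.222 FPKM in PDL against 0 and 0.267 in PSL, and its standard error of 1.14 covers most of that value. The family summed to 853 and 631 in PDL against 684 and 966 in PSL.

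Many members lie next to relatives on the chromosome. With a distance of at most 200 kb between starts, 41 of the 102 fell into 12 runs of the same family, 5 of dirigent-like genes, 3 of spermidine hydroxycinnamoyl transferases and 1 each of phenylalanine ammonia-lyase, 4-coumarate:CoA ligase, chalcone synthase and chalcone isomerase. Neighbours often differed in level. In the run of dirigent-like genes on chromosome 1, means went from 0.533 to 303 FPKM, and in the run on chromosome 3 that starts at 5621583 from 0.0730 to 53.6. Fold changes within a run also differed in sign in the runs of 4-coumarate:CoA ligase, chalcone synthase and chalcone isomerase genes described above. The same held for the dirigent-like runs on chromosomes 1 and 3 and the spermidine hydroxycinnamoyl transferase runs on chromosomes 8 and 18. The pair of dirigent-like genes on chromosome 11 was closest in response, with log2 fold changes of −0.11 for Glyma.11G150300 and −0.07 for Glyma.11G150400.

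The median spread between replicates was wider over the members than over all loci, though not in every family. The SD between replicates had a median of 0.29 (log2 scale) over the 83 tested members and 0.20 over all tested loci. Among genes of at least 5 FPKM it was 0.22 for 41 members and 0.15 for 18090 loci. By family it was 0.49 for dirigent-like genes, 0.43 for chalcone synthase and 0.41 for phenylalanine ammonia-lyase. It was 0.26 for chalcone isomerase and for the shikimate/quinate transferases, 0.20 for the spermidine kind and 0.14 for 4-coumarate:CoA ligase. A particular order of the replicates was more common among the members than over all loci. At 39 members (47.0%) PDL-2 was below PDL-1 and PSL-2 above PSL-1, where 29.2% of all tested loci had this order, and the reverse order was seen at 15 members (18.1%) against 27.9%. The first order was not particular to the members. It was seen at 27 of 58 tested loci of the Pi-starvation list, above the share of all loci. In the mesophyll list it was seen at 8 of 37, below that share. PSL-2 was the highest library at 34 members (41.0%), against 28.0% of all loci. The order was shared by 14 of 24 dirigent-like, 7 of 9 chalcone synthase and 7 of 15 chalcone isomerase members, but by 2 of 12 spermidine hydroxycinnamoyl transferases and 1 of 7 4-coumarate:CoA ligases. Across members, the difference between the PDL replicates and that between the PSL replicates had a Pearson's r of −0.31, and of −0.58 among the 41 members of at least 5 FPKM. Across all tested loci it was −0.08. These correlations are across genes that share the same 4 libraries and are given as descriptions. No label ties a replicate of one group to that of the other, and what set this order was not tested.

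**Figure D5:**
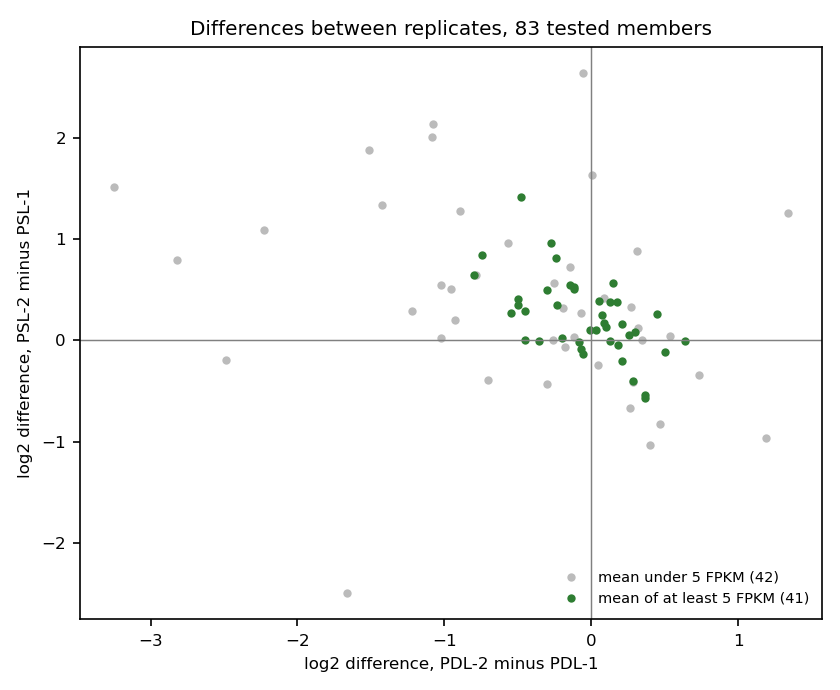
Difference between the replicates of PDL (x axis, PDL-2 minus PDL-1) and of PSL (y axis, PSL-2 minus PSL-1) in log2(FPKM + 0.1) for the 83 tested members, with the 41 members of at least 5 FPKM in green. The upper left part, where PDL-2 is below PDL-1 and PSL-2 above PSL-1, holds 39 members and the lower right part 15.

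The rest of the pathway was read from 4 lists of descriptions. Among 32 tested genes of the shikimate route and phenylalanine supply, limma called 0, with 0 at an unadjusted p of 0.05 or less, and the median log2 fold change was 0.08. Glyma.15G054700, for the DAHP synthase that opens the route, had 160.3 and 162 FPKM in PDL against 159 and 157 in PSL. All 4 libraries of this gene were within a few percent of each other. Among 16 tested cytochrome P450 genes of the pathway, 12 had a negative log2 fold change, with a median of −0.23. An unadjusted limma p of 0.05 or less was reached by 3 of the 16, against 8.93% of all tested loci. Of the 16, 1 was called lower (0.887% of all loci) and 0 higher (1.14%). The called gene was Glyma.11G074100, described as ferulic acid 5-hydroxylase 1, an enzyme of syringyl lignin. It had 0.889 and 0.824 FPKM in PDL against 1.83 and 2.83 in PSL, for a log2 fold change of −1.32 ± 0.31 (SE, limma adjusted p = 0.501). Without PDL-1 and without PDL-2 that call was lost, at −1.36 and −1.27. The most abundant gene of that description, Glyma.09G186500, had 49.9 and 49.9 FPKM in PDL against 48.8 and 57.7 in PSL and overlapped between groups. Glyma.16G131200, also so described, had 0.811 and 0.127 in PDL against 1.11 and 2.29 in PSL and was not called. Glyma.02G236500, for the cinnamate 4-hydroxylase that follows phenylalanine ammonia-lyase, had 162 and 196 in PDL against 221 and 189 in PSL and overlapped between groups.

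Lignin steps (methyltransferases, reductases, dehydrogenases and laccases) had 45 tested loci, where the laccase gene Glyma.07G054200 is listed as 2 loci. Of the 45, 1 was called higher (1.14% of all loci) and 0 lower (0.887%), and the median log2 fold change was −0.28. An unadjusted limma p of 0.05 or less was reached by 4 of the 45, against 8.93% of all tested loci. Among these, Glyma.07G048900, Glyma.14G221200 and Glyma.16G103900 were lower in both PDL libraries. Their log2 fold changes were −0.90, −0.65 and −0.66. Glyma.09G211600, for pinoresinol reductase 1, which acts on a lignan made with dirigent proteins, rose, with 2.16 and 2.18 FPKM in PDL against 0.967 and 0.803 in PSL. Its log2 fold change was 1.21 ± 0.25 (SE, limma adjusted p = 0.471). Other loci of the same description lay on the other side and were not called. Glyma.16G103900, more abundant, had 10.3 and 8.43 FPKM in PDL against 12.4 and 17.6 in PSL. Glyma.01G009500 had 0.320 and 0.522 in PDL against 1.22 and 0.793 in PSL. The most abundant gene of these lists, Glyma.06G295700, described as O-methyltransferase 1, had 1872 and 869 FPKM in PDL against 1131 and 2917 in PSL. It showed the replicate order of the chalcone synthase and dirigent-like genes, as did 27 of the 45. Of 9 tested MYB regulators, limma called 0, with 0 at an unadjusted p of 0.05 or less. Glyma.06G003800, described as MYB domain protein 4, a repressor of phenylpropanoid genes in Arabidopsis, had 139 and 132 in PDL against 136 and 153 in PSL.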

How the data were processed

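RNA of first trifoliate leaves was sequenced in 4 libraries, 2 of PDL and 2 of PSL. The authors filtered reads (FASTX-toolkit, FastQC), mapped them to Gmax2.0 with TopHat on a Bowtie2 index, and used Cufflinks for assembly and Cuffdiff for the comparison. Versions are not given in the sources used here. The deposited table holds FPKM per locus and library, computed by the authors, plus pooled FPKM of each group and the authors' fold changes, test statistics, p-values, q-values and yes/no marks, which were not used. Read depth per locus was not known here, so no counting error is given.

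Loci with a mean of at least 0.3 FPKM (32686 of 39505) entered limma 3.58.1 (R 4.3.3) as log2(FPKM + 0.1) values (eBayes with trend, no covariate), and p-values were adjusted over all of them by Benjamini-Hochberg. The test was tried on simulated data. Python 3.11.15, pandas 2.3.3 and matplotlib 3.10.9 were used for the rest. Members and lists were chosen with earlier results of these data known. Genes named are all called members, the most abundant member of each family, the highest and lowest fold change in families with 3 or more tested members, any member at 0 in a library but at 5 FPKM or more in another (0 met this), and the called and most abundant genes of each list. Others named, such as neighbours in a run and the SPX example, were chosen after their values were seen.

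Same-numbered replicates did not deviate together over all loci (r = −0.08). Alternatives were pseudocounts of 1 and 0.01, a filter at 1 FPKM or none, quantile normalization, median centring, no trend, a replicate block, each library left out and, chosen after seeing the data, loci above 0 in all libraries. Sequences were not used here, since 0 of 102 gene names matched the 59048 entries of the reference.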

Additional observations from a re-analysis of the deposited data

How the results depend on the processing

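Over all loci, 663 were called, 365 with a pseudocount of 1, 1041 with no filter on low values, and between 1066 and 1407 with 1 library left out. Members called higher numbered 2, but 0 with a pseudocount of 1 and between 1 and 4 with 1 library left out. Members called lower numbered 1, but 0 with a pseudocount of 1 or with no mean-variance trend, and between 0 and 3 with 1 library left out. The 4 lists of pathway genes outside the members gave 2 calls, 0 with a pseudocount of 1, 4 with no mean-variance trend, 5 among loci above 0 in all libraries and between 2 and 8 with 1 library left out. With the replicate block, 662 loci were called, with 2 members higher and 1 lower and 3 calls in the pathway lists. Same-numbered libraries carry no other shared label, so the block is an alternative and no pairing is assumed. The median log2 fold change of the members stayed between −0.12 and 0.18 in every setting. For family sums, the log2 ratio of PDL to PSL ranged, with 1 library left out, from −0.23 to −0.042 for phenylalanine ammonia-lyase (main −0.13) and from −1.31 to 0.65 for caffeoyl-CoA O-methyltransferase (main −0.02). With the median member in place of the sum it was −0.037 for phenylalanine ammonia-lyase, 0.94 for 4-coumarate:CoA ligase (main −0.21), 0.16 for chalcone isomerase (main −0.14), −0.60 for the shikimate/quinate transferases (main −0.12) and 0.52 for dirigent-like proteins (main −0.15). The median follows 1 gene and the sum the abundant genes. Of 30 named genes, 22 kept their side of the thresholds in every setting in which they were tested. A member with the median standard error of 0.26 could be called only from the fold threshold on. Glyma.02G048400, with a standard error of 0.25, had an unadjusted limma p of 0.0425 at a log2 fold change of 0.70 and was not called.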

Other observations

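The table's KEGG annotation, looked at after the members' values were seen, adds flavonoid genes that the descriptions miss. Flavonoid biosynthesis is assigned to 35 members and to 20 other single-gene loci, of which 15 were tested. Limma called 0 of these, with 2 at an unadjusted p of 0.05 or less, and the median log2 fold change was −0.16. They include loci described only as S-adenosyl-L-methionine-dependent methyltransferases. Glyma.17G171100, more abundant than any member, had 918 and 1015 FPKM in PDL against 837 and 760 in PSL. Glyma.02G103500 had 127 and 99.0 against 134 and 185, and Glyma.01G004200 44.8 and 31.1 against 48.7 and 64.8. Whether these act on caffeoyl-CoA was not tested. Isoflavonoid biosynthesis, the legume branch, is assigned to 14 loci outside the members, and of 12 tested limma called 0, with 0 at an unadjusted p of 0.05 or less. Glyma.07G202300, in the cytochrome P450 family 93 to which isoflavone synthase belongs, had 124 and 153 FPKM in PDL against 144 and 149 in PSL, so the groups overlapped. Glyma.13G173500, of the same family, had 50.5 and 35.9 in PDL against 51.0 and 85.3 in PSL, again with PSL-2 highest and PDL-2 lowest. Glyma.19G126000 and Glyma.03G122000, both of cytochrome P450 family 98, which adds the hydroxyl group of caffeoyl esters, were lower in both PDL libraries. They had 119 and 126 in PDL against 158 and 159.9 in PSL, and 57.7 and 47.2 in PDL against 65.5 and 79.6 in PSL.

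The merged loci left out by the rule include a pair of chalcone synthase loci. The locus of Glyma.06G118500 and Glyma.06G118600 had 39.5 and 49.3 FPKM in PDL against 51.4 and 32.7 in PSL, and that of Glyma.05G153200 and Glyma.05G153300 had 11.5 and 11.3 in PDL against 13.5 and 13.7 in PSL. By mean level the first would have ranked above every chalcone synthase member, Glyma.19G105100 included, and its groups overlapped. Both were tested and not called. The other merged locus, of dihydroflavonol 4-reductase, is given with that family above and was not called either.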
